A study of Mus musculus with 8 samples.

Results

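Esrp1 and Esrp2, the genes deleted in this study, were followed at the level of the whole gene and, for Esrp1, junction by junction. They were taken by symbol: 2 of 21690 genes in the expression data, and 24 of 1203 entries in the splicing data. All 24 entries belonged to Esrp1, and Esrp2 had 0. Back-skin epidermis was collected from mouse pups at postnatal day 5 and sequenced in 8 libraries, 4 control and 4 experimental, which the labels call biological replicates. Control pups were Esrp1flox/flox; Esrp2-/-. Experimental pups carried the same alleles plus K5rTA and tetOCre, a Cre recombinase switched on by doxycycline in cells that use the keratin 5 promoter. The dams of both groups ate doxycycline chow from embryonic day 17. Both groups therefore lacked Esrp2 by genotype and received the drug, and the comparison is of the Cre-driven Esrp1 deletion together with the transgenes. Keratin 5 marks the basal layer of stratified epithelia, and a deletion made there is inherited by the upper-layer cells that descend from it.

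ESRP1 and ESRP2 are paralogous RNA-binding proteins of epithelial cells. They bind pre-mRNA through RNA recognition motifs and decide whether alternative exons are kept, which gives epithelial transcripts isoforms that differ from those of mesenchymal cells. Switching of the receptor gene Fgfr2 between its epithelial and mesenchymal exons is the classic example.

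The expression data give TPM, a share of transcripts corrected for gene length, and values at or under 1 TPM are listed at 0. TPM keeps no sequencing depth, so depth was unknown. Keratinocyte markers (Krt5, Krt14, Krt1, Krt10, Trp63 and Cdh1) summed to between 17442 and 41992 TPM in controls and between 37282 and 54669 TPM in experimental libraries, and all 6 were detected. Endothelial and Merkel cell markers were at 0 in every library, and fibroblast markers summed to at most 29.6 TPM in control libraries and 3.29 TPM in experimental ones, with Lum and Pdgfra at 0 throughout. Melanocyte markers summed to between 32.4 and 142.9 TPM in controls and between 28.1 and 75.6 TPM in experimental libraries. Langerhans cell and macrophage markers summed to between 101.5 and 374.3 TPM in controls and between 137.1 and 267.1 TPM in experimental libraries. T cell markers summed to between 1.84 and 19.3 TPM in controls and between 4.83 and 19.7 TPM in experimental libraries. Erythroid markers reached 9555 TPM in control libraries and 4166 TPM in experimental ones. Hair follicle markers summed to between 4169 and 31160 TPM in controls and between 1080 and 8396 TPM in experimental libraries. Sebaceous markers summed to between 64.2 and 234.5 TPM in controls and between 51.0 and 69.8 TPM in experimental libraries. Log2 changes were below 0 in 3 of 3 sebaceous markers (median -0.89) and in 7955 of all 10682 genes tested (median -0.18). Mitochondrially encoded genes took 18.2% and 17.5% of the TPM in experimental libraries 2 and 4 and 10.6% to 12.6% elsewhere. The part of these differences in the results below was not tested.

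Exons of Esrp1 are numbered along its 16-exon models in GENCODE M21 (GRCm38), where the gene lies on the minus strand at chr4:11331933-11386783. The sequences at the joins that changed are shown first, since they fix what the transcript of the deleted allele can encode. They were read from the GENCODE M21 transcripts, 5′ to 3′. The first 3 give the last 30 bases of the upstream exon in lower case and the first 30 of the downstream exon in capitals. The join from exon 6 (chr4:11366908-11366962) to exon 10 (chr4:11360954-11361255) is absent from the annotation.
exon 6 to exon 7: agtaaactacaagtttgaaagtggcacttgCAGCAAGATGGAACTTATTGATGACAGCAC
exon 9 to exon 10: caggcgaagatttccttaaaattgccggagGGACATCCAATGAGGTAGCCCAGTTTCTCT
exon 6 to exon 10: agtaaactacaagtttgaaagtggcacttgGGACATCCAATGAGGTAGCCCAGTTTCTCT

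Between them lie exon 7 (chr4:11365374-11365484, 111 bases), exon 8 (chr4:11365144-11365276, 133 bases) and exon 9 (chr4:11365004-11365046, 43 bases), all of them coding. Their combined 287 bases leave a remainder of 2 when divided by 3. In the line below exon 8 is in capitals.
exons 7 to 9: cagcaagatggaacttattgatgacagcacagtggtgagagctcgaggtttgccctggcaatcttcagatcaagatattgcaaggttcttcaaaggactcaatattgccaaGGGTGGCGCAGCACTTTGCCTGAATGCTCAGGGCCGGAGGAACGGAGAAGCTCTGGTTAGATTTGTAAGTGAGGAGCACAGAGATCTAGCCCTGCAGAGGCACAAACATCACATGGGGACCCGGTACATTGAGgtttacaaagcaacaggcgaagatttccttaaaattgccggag

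Reading from the annotated start codon, exons 1 to 6 supply 214 whole codons and 2 further bases. Joined to exon 10 in that frame, they meet a stop codon that begins at base 11 of exon 10, after 218 codons in all. The 16-exon models have 677 or 681 codons. The stop is in capitals.
exon 6 to the stop in exon 10: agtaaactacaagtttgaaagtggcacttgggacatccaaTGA

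Esrp1 RNA was about halved at gene level, while its intact form almost disappeared. Esrp1 (ENSMUSG00000040728.15) stood at 135, 131, 133 and 162 TPM in control libraries 1 to 4 and at 65.0, 49.8, 75.6 and 66.5 TPM in experimental libraries 1 to 4. Every experimental library lay below every control, and experimental library 2 was the lowest. By TPM, Esrp1 ranked between 585 and 709 among all genes in the control libraries and between 1104 and 1327 in the experimental ones. Means were 140.3 ± 14.6 and 64.2 ± 10.7 TPM (SD, n = 4 each), and the log2 change on the log2(TPM + 1) scale was -1.13 (SE 0.17, limma adjusted p = 0.0112). Among all 10682 genes tested, limma called 1.54% lower and 0.917% higher, and the groups were apart for 9.94% with the experimental libraries lower and for 2.7% with them higher. Exact permutation of the library labels (two-sided) gave p = 0.0286, and 4 against 4 libraries can give no smaller value. Leaving out any 1 library gave log2 changes between -1.21 and -1.01 with limma adjusted p at most 0.0391. Without experimental libraries 2 and 4 the log2 change was -0.99 and missed the threshold of 0.05 (limma adjusted p = 0.154). The authors' deposited table gives a log2 fold change of -0.98 (SE 0.23, adjusted p = 0.000681, DESeq2).

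**Figure D1:**
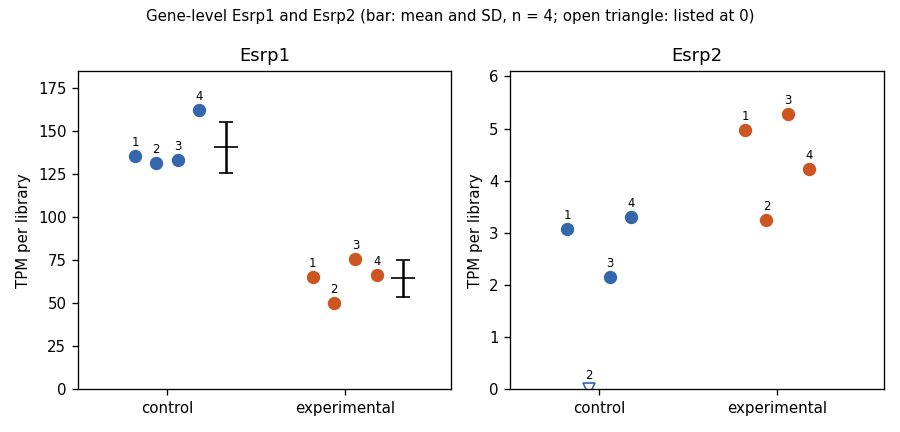
TPM of Esrp1 (left) and Esrp2 (right) in each library; numbers name the libraries, bars give the mean and SD of 4 libraries for Esrp1, and the open triangle is a value listed at 0. Esrp1 was at 131 to 162 TPM in control libraries and 49.8 to 75.6 TPM in experimental ones, whereas the Esrp2 values of the groups overlap.

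Krt5 and Krt14, whose protein products pair in basal cells, were uneven among controls. Krt5 read 3102, 2617, 1020 and 316 TPM in control libraries 1 to 4 and 858, 673, 1047 and 606 TPM in the experimental ones (limma adjusted p = 0.576). Control library 4, lowest in Krt5, was highest in Esrp1. It was also highest in Krt71, a keratin gene of the hair follicle, at 12529 TPM, and experimental library 2, lowest in Esrp1, was lowest in Krt71 at 391 TPM. Other libraries did not keep this order. Control library 1, lowest of the controls in Krt71 at 1676 TPM, lay above control libraries 2 and 3 in Esrp1. Experimental library 1, highest of its group in Krt71 at 3276 TPM, lay below experimental libraries 3 and 4 in Esrp1. The part of follicle cells in the Esrp1 difference was not tested. Fewer cells of a type and less RNA per cell cannot be told apart in bulk epidermis.

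At the deleted exons, the authors' splicing data showed a large but incomplete switch of joins. PSI is the share of the reads at an exon's splice site that use 1 junction. MAJIQ, the tool the authors used, combined the libraries of a group, so these values carry no spread between libraries. Seen from exon 6, the join to exon 7 went from a PSI of 0.842 in controls to 0.072 in experimental epidermis, and the join to exon 10 from 0.001 to 0.828. Listed PSI at exon 6 summed to 0.843 in controls and 0.9 in experimental epidermis, so part of the reads there is not listed. Seen from exon 10, the join from exon 9 went from 0.953 to 0.147, and the join from exon 6 from 0 to 0.669. The intron between exons 9 and 10 was listed as kept at 0.047 in controls and 0.118 in experimental epidermis, a difference of 0.068 with a probability of 0 of reaching 0.15. The joins of exons 9 to 10, 6 to 10 and 6 to 7 ranked 37, 38 and 45 by size of change among 738 distinct junctions and introns of 236 genes.

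**Figure D2:**
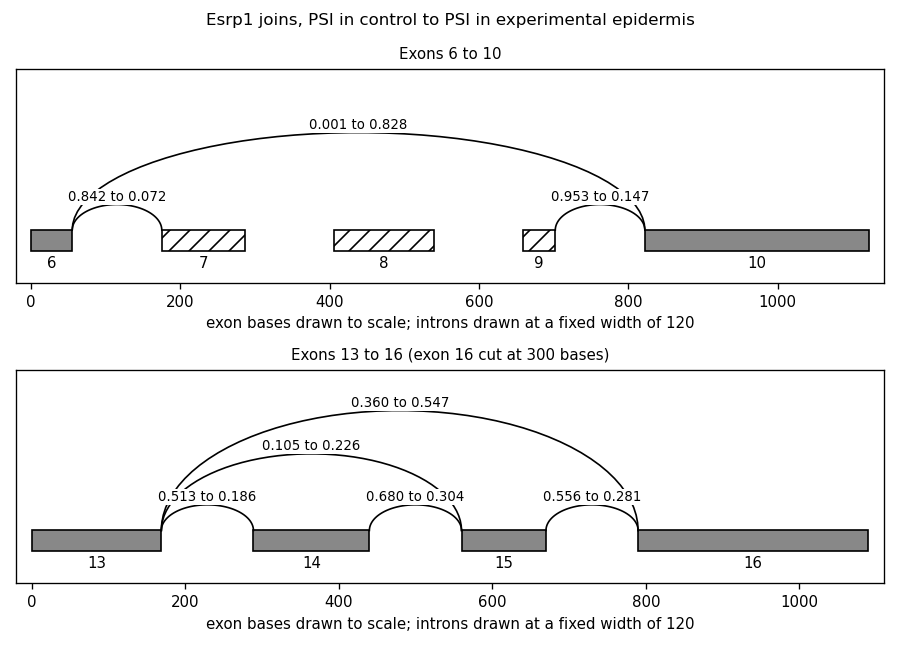
Exons of Esrp1 (boxes, widths to scale in bases except that exon 16 is cut short, introns at a fixed width; hatched, exons 7 to 9) with joins as arcs labelled by PSI in control and then experimental epidermis; values are seen from exons 6 and 13, except the joins from 9 to 10, 14 to 15 and 15 to 16, which are seen from the downstream exon. The arc from exon 6 to exon 10 goes from 0.001 to 0.828.

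Multiplying the mean TPM of a group by its PSI gives a rough level for RNA with a given join. This assumes that the gene-level TPM applies at that exon, and it has no error of its own. For the join from exon 6 to 7 the product was 118 TPM in controls and 4.62 TPM in experimental epidermis, or 3.91% of the control value. The join from exon 9 to 10 gave 134 and 9.44 TPM, or 7.06% of control. RNA joining exon 6 to exon 10 came to 53.2 TPM seen from exon 6 and 43.0 TPM seen from exon 10. Most of the Esrp1 RNA counted in experimental epidermis thus carried the join that lacks exons 7 to 9.

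At the 3′ end of Esrp1, downstream of the deleted exons, the listed PSI differed as well. This region holds 2 optional coding exons, exon 14 (151 bases) and exon 15 (chr4:11338722-11338831, 110 bases), between exon 13 (chr4:11353295-11353463) and the last exon, 16 (chr4:11331933-11333473). Neither length is a multiple of 3, but together they make 261 bases, which is. Whether they are kept therefore sets the reading frame and the stop codon at the end of the protein. The next lines give exons 15 and 16 as far as the later of their stop codons, with stop codons in capitals.
exon 15 to its later stop: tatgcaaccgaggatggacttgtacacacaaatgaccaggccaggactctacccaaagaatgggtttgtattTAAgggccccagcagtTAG
exon 16 to its later stop: tgttTGAaagacgtatggTGA

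Counted on the shorter annotated form of exon 12, the frame with both exons kept ended at base 73 of exon 15 after 677 codons. With exon 14 alone it ended at base 19 of exon 16 after 659 codons, and with exon 15 alone at base 89 of exon 15 after 632. With neither it ended at base 5 of exon 16 after 604 codons. In RNA that joins exon 6 to exon 10, the first stop lies in exon 10, upstream of all these ends.

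Exon 14 was used less in experimental epidermis. Seen from exon 13, the join to exon 14 went from a PSI of 0.513 to 0.186, a difference of -0.328 with a probability of 1 of being at least 0.15 in size. The join that passes over exon 14 to exon 15 went from 0.105 to 0.226 (probability 0.179), and the join straight to exon 16 from 0.36 to 0.547 (probability 0.804). In controls the order of use was exon 14, exon 16, exon 15, and in experimental epidermis exon 16, exon 15, exon 14. Of these 3 differences only the first had a probability over 0.95.

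The same shift appeared at the downstream exons. Seen from exon 15, the join from exon 14 went from 0.68 to 0.304 and the join from exon 13 from 0.155 to 0.468, both with a probability of 1. Seen from exon 16, the join from exon 15 went from 0.556 to 0.281 with a probability of 1. The join from exon 13 to exon 16 read 0.243 and 0.265 from that side, with a probability of 0. The 213 bases just before exon 16 (chr4:11333474-11333686) were listed as a kept intron at 0.136 in controls and 0.434 in experimental epidermis (probability 0.993). The annotation has no such feature, and it covers only the end of the 5248-base intron between exons 15 and 16. A second entry treats these bases as the edge of a first exon, at 0.002 and 0.003. Listed PSI at exon 15 summed to 0.835 in controls and 0.772 in experimental epidermis, so the table leaves out part of the reads there.

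**Figure D3:**
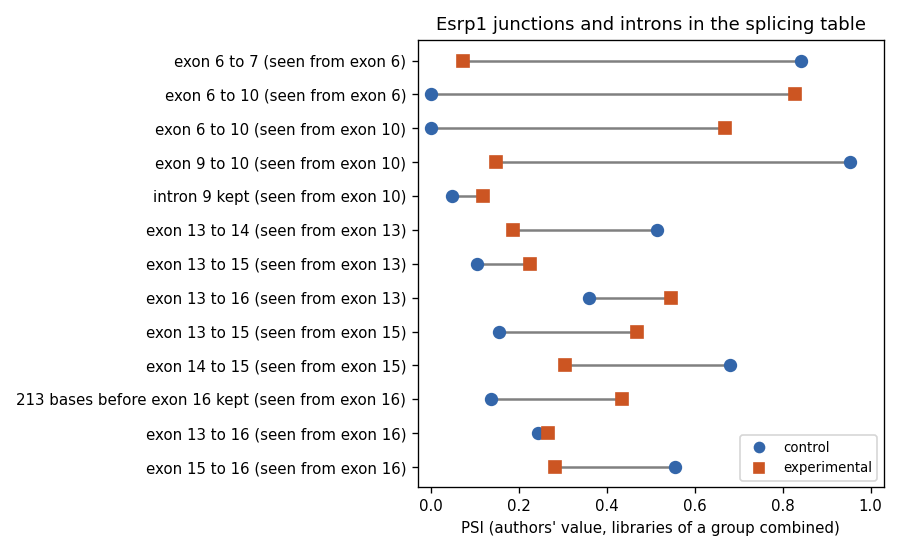
PSI of each Esrp1 junction or kept intron in control (circles) and experimental (squares) epidermis, 1 row for each exon from which it is seen. Joins into and out of exons 7 to 9 and joins of exon 14 move left in experimental epidermis, and the joins that pass over them move right, least of all the join from 13 to 16 seen from exon 16 (0.243 and 0.265).

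Counting each junction or intron once, by its larger change, 9 of 11 in Esrp1 differed by at least 0.15 in PSI, 4 higher and 5 lower. Over all genes listed, 97.7% did, so the count itself does not set Esrp1 apart. The 3′ changes were smaller than those at the deleted exons: they ranked between 275 and 662 of 738. Joins of exons 1 to 6 and of exons 10 to 13 to each other are not among the entries.

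Multiplied by mean TPM, the join from exon 13 to exon 14 went from 72.0 to 11.9 TPM, or 16.6% of control. The gene as a whole was 2.18-fold lower.

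Esrp2 RNA stayed low in all libraries. Esrp2 (ENSMUSG00000084128.10, minus strand, chr8:106130319-106136974) read 3.07, 0, 2.14 and 3.31 TPM in control libraries 1 to 4 and 4.98, 3.25, 5.28 and 4.22 TPM in experimental libraries 1 to 4. The highest control, library 4, lay just above the lowest experimental one, library 2, so the groups overlapped. The log2 change was 0.73 (SE 0.25), with limma adjusted p = 0.176 and, by a two-sided exact permutation test, p = 0.0571. With each library centred on its median it was 0.94 (limma adjusted p = 0.0982). With library weights it was 1.37 (limma adjusted p = 0.00102), the one setting in which Esrp2 passed. In that setting 4423 of all 10682 genes tested passed. The labels do not say which part of Esrp2 the null allele lacks, and gene-level TPM cannot show it.

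The last 219 bases of Esrp2 overlap the end of Nfatc3, a calcium-regulated transcription factor gene on the opposite strand. The kit named in the labels is not stated to keep strand, so reads in that stretch cannot be assigned with certainty. Nfatc3 read 6.84, 4.83, 5.58 and 4.46 TPM across control libraries 1 to 4 against 5.29, 4.20, 6.77 and 8.38 TPM across the experimental 4 (limma adjusted p = 0.776), a level near that of Esrp2.

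TPM is corrected for gene length, so the paralogs can be set against each other, but only roughly. The length of RNA that the Esrp2 null allele makes is not known, and most experimental Esrp1 RNA lacks exons 7 to 9. Reads in the stretch shared with Nfatc3 may also enter the Esrp2 value. Esrp1 exceeded Esrp2 by 44.1, 62.0 and 49.0 times in control libraries 1, 3 and 4 and by at least 131 times in control library 2, where Esrp2 was at or under 1 TPM. In experimental libraries 1 to 4 it exceeded Esrp2 by 13.1, 15.3, 14.3 and 15.8 times. By TPM, with these limits, Esrp1 remained the more abundant paralog, counted mostly as RNA without exons 7 to 9.

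Genes next to Esrp1 and Esrp2 were checked for local change. The 3 nearest protein-coding genes on each side of each gene made 12, of which 11 were in the expression data and 8 passed the filter of a mean of at least 1 TPM. None of the 8 passed the limma test, where 2.46% of all genes tested did. The unadjusted limma p was under 0.05 for 0 of the 8 and for 1810 of all 10682 genes tested. Dpy19l4, a gene of the DPY19 family that lies 9.80 kb beyond the 3′ end of Esrp1, read 4.94, 4.42, 3.84 and 4.73 TPM across control libraries 1 to 4 against 4.45, 2.82, 4.63 and 5.12 TPM across the experimental 4, a log2 change of -0.08 (SE 0.19). Virma, a subunit of the RNA m6A methyltransferase complex on the other side, differed by -0.19 (SE 0.20). The cyclin gene Ccne2 differed by -0.40 (SE 0.21) and the Integrator subunit gene Ints8 by -0.31 (SE 0.22). Around Esrp2, the RNA helicase gene Ddx28 differed by 0.27 (SE 0.17), the tRNA dihydrouridine synthase gene Dus2 by 0.29 (SE 0.18) and Slc7a6os by 0.07 (SE 0.16). Ddx28 passed with quantile normalization, and Ccne2 and Dus2 with library weights. Without control libraries 3 and 4, Ccne2 and Rad54b, a DNA repair gene under the filter in the full set, were called lower. Over all genes tested, 386 passed with quantile normalization, 4423 with library weights and 2595 without control libraries 3 and 4.

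**Figure D4:**
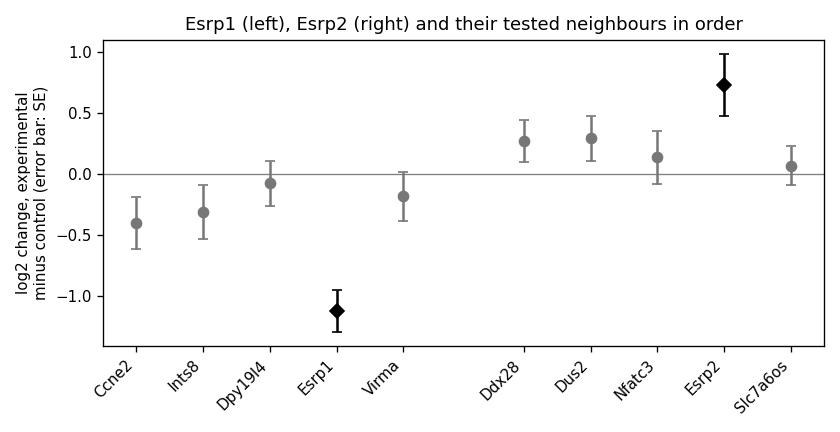
Log2 change (experimental minus control, error bars SE of the limma fit on 4 against 4 libraries) of Esrp1, Esrp2 (diamonds) and their tested neighbours (circles) in chromosomal order. Esrp1 at -1.13 lies below its 4 tested neighbours, which lie between -0.40 and -0.08.

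Regulators of splicing other than the ESRPs were listed for comparison. Of 40 listed splicing regulators 32 were tested, and 0 passed the limma test. Of the 32, 1 had an unadjusted limma p under 0.05, as had 1810 of all 10682 genes tested. With library weights 17 passed, as did 4423 of all 10682 genes tested. Without control libraries 3 and 4, 14 passed, as did 2595 of all 10713 genes tested in that fit. The median log2 change of the listed regulators was -0.22, against -0.18 for all genes tested. Tra2a, an exon-enhancer-binding protein gene, had the lowest p and read 29.2, 23.8, 29.3 and 27.2 TPM across control libraries 1 to 4 against 15.2, 16.1, 20.8 and 24.9 TPM across the experimental 4 (limma adjusted p = 0.201). Hnrnph2, which binds G-rich RNA, came next with a log2 change of -0.40 (limma adjusted p = 0.327). Rbm47 and Rbfox2, which take part in epithelial and mesenchymal splicing programs, differed by -0.22 and -0.28 (limma adjusted p = 0.504 and 0.458).

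Among 23 listed regulators of the epithelial state, 17 were tested, 1 rose and 1 fell, where 0.917% of all genes tested rose and 1.54% fell. The median log2 change was -0.19, against -0.18 over all genes tested. Of the 17, 6 had an unadjusted limma p under 0.05, as had 1810 of all 10682 genes tested. Grhl3, a grainyhead-like barrier transcription factor gene, rose from 37.3, 34.5, 32.4 and 29.9 TPM to 82.9, 54.7, 78.9 and 103 TPM (limma adjusted p = 0.0156). Its relative Grhl1 fell from 157, 152, 170 and 231 TPM to 62.4, 41.7, 68.1 and 73.2 TPM (limma adjusted p = 0.0077). For both genes the groups did not overlap, as for 12.6% of genes tested. Grhl3 lost its call without control library 3 and without experimental library 1, 3 or 4. Without experimental libraries 2 and 4 both missed the threshold (limma adjusted p = 0.074 for Grhl3 and 0.0975 for Grhl1). Zeb1, Snai1 and Twist1, mesenchymal repressors of which Zeb1 is known to repress Esrp1, were at 0 in every library. Snai2, a repressor of the same family as Snai1, was detected in all of them, at 9.55, 6.85, 3.81 and 1.31 TPM in control libraries 1 to 4 and at 2.43 to 2.83 TPM in the experimental ones (limma adjusted p = 0.443). Cdh1, which encodes the epithelial adhesion protein E-cadherin, differed by -0.03 (SE 0.18).

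The list of genes known as splicing targets of the ESRPs held 36 names, and 28 were tested at gene level. None rose and 2 fell, where 0.917% of all genes tested rose and 1.54% fell. The median log2 change was -0.27, against -0.18 over all genes tested. Of the 28, 7 had an unadjusted limma p under 0.05, as had 1810 of all 10682 genes tested. Besides Grhl1, the fall was that of Mpzl1, a cell-surface glycoprotein gene, which read 12.6, 10.8, 10.5 and 12.1 TPM across control libraries 1 to 4 against 6.83, 3.95, 6.28 and 5.39 TPM across the experimental 4 (limma adjusted p = 0.0285). Mpzl1 lost its call without control library 1, 2 or 3 and without any 1 of the experimental libraries. Without experimental libraries 2 and 4 its limma adjusted p was 0.223. Fgfr2 itself differed by -0.67 (SE 0.40, limma adjusted p = 0.427). In the list of genes of the keratin 5 layer and the layers above it, 1 of 9 tested genes passed, the basal keratin gene Krt15, which read 1323, 1124, 876 and 184 TPM across control libraries 1 to 4 against 48.9, 115, 170 and 97.7 TPM across the experimental 4 (limma adjusted p = 0.0361). Of these 9 genes, 3 had an unadjusted limma p under 0.05. Krt15 missed the threshold with libraries centred on their medians (limma adjusted p = 0.051) and with quantile normalization (limma adjusted p = 0.0642). It also lost its call without control library 1, 2 or 3, without any 1 of the experimental libraries, and with no filter on low values. Log2 changes below 0 were found in 5 of 5 hair follicle markers (median -1.36) and in 7955 of all 10682 genes tested. Of these markers 0 were called by limma, and 2 had an unadjusted p under 0.05, as had 1810 of all genes tested. Follicle cells also use Krt15, and their part in its result was not tested. Across these lists 4 of 85 distinct genes passed, where 2.46% of all genes tested did. That count was 2, 2, 1 and 7 without control library 1, 2, 3 or 4 and 1, 2, 1 and 1 without experimental library 1, 2, 3 or 4. Without experimental libraries 2 and 4 it was 0.

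The genes whose profile lay nearest to that of Esrp1 over the 8 libraries were Mylip, Kif1c, Atf6b, Cyb561d1 and Galnt10. Nearness was the root mean square difference of log2(TPM + 1) after centring each gene on its mean, and it ranged from 0.09 to 0.13 for these 5. Mylip, an E3 ubiquitin ligase gene, read 10.2, 8.33, 9.21 and 11.3 TPM across control libraries 1 to 4 against 4.27, 2.60, 4.98 and 4.79 TPM across the experimental 4. Kif1c, a kinesin motor gene, read 118, 122, 106 and 137 TPM and then 61.5, 46.9, 69.8 and 53.9 TPM. As with Esrp1, controls were all higher, with library 4 on top in 5 of the 5 genes, and experimental library 2 was the lowest. The 5 genes were picked for nearness to Esrp1 over these same libraries, so this shared order follows from the selection. For Esrp2 the nearest were Dusp16, Nipal4, Scnn1g, Tmem170b and Serpinb7, at 0.23 to 0.26. Dusp16, a MAP kinase phosphatase gene, read 17.3, 13.5, 14.4 and 18.2 TPM across control libraries 1 to 4 against 28.0, 20.7, 25.1 and 26.0 TPM across the experimental 4 (limma adjusted p = 0.0904).

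**Figure D5:**
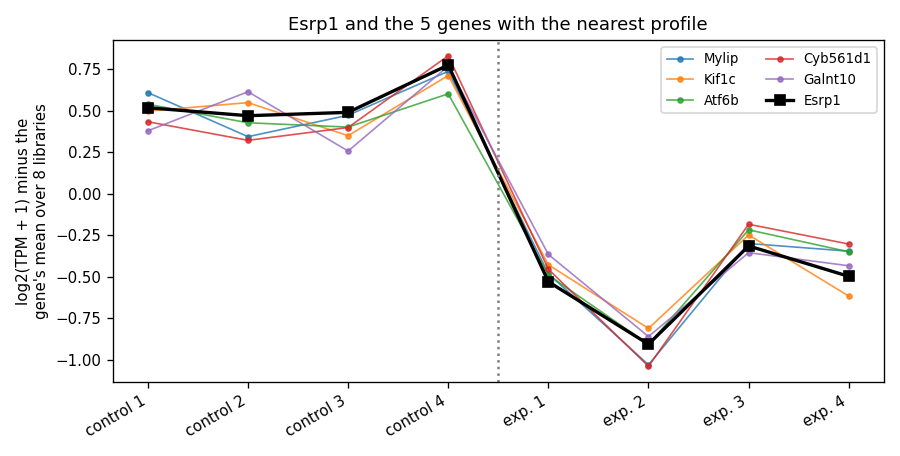
Centred log2(TPM + 1) of Esrp1 (black squares) and of the 5 genes nearest to it in each library; lines only link the values of a gene, and the dotted line parts the groups. All 6 genes lie above their own mean in the 4 controls and below it in the 4 experimental libraries, a likeness for which the 5 were picked.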

How the data were processed

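The 8 libraries (4 control, 4 experimental) were assigned to groups by their column names, whose numbers no label explains; libraries 1 to 4 of a group are named in the order of the table. Salmon 0.14.0, STAR, SAMtools 1.9 and DESeq, with GRCm38 and mm10 as builds, stand in the submitters' processing notes with no role given. The deposited expression values are log2 TPM per gene, uncorrected for batch per the file name. Set against the mean normalized counts (signal) of the authors' deposited DESeq2 table, counts per base over 2 to the power of the value were level over 4 bins of 98 or 99 genes (1.03 to 1.05 times the top bin), so 0 was read as 1 TPM or less. That deposited table also holds log2 fold changes, a Wald score and p-values, for 748 genes, all below 0. The deposited MAJIQ table gives, per the file headers, PSI as a fraction per group, its difference and posterior probability scores.

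TPM set to at least 1 was tested as log2(TPM + 1) for the 10682 genes with a mean of at least 1 TPM. The test was limma 3.58.1 (R 4.3.3, group only, variance trend, Benjamini-Hochberg adjusted p under 0.05). It was also run on simulated data with independent noise for each gene and no shift of whole libraries. That run cannot show how the test behaves where whole libraries shift. Summaries used Python 3.11.15, pandas 2.3.3, numpy 2.4.6 and matplotlib 3.10.9. Of the listed genes, Zeb2, Tmem87b, Itga6, Slk, Kif13a, Macf1, Dst, Pard3, Lrrfip2 and Trdc were not analysed here. The nearest 3 neighbours came from RefSeq (GRCm38.p6). The members and lists were chosen with earlier results of these data known. Genes named were Esrp1 and Esrp2, their neighbours, up to 4 called members of each list or its 2 of lowest p, and the 5 nearest profiles of each; Rbm47, Rbfox2, Fgfr2, Cdh1, Krt5, Krt14, Krt71, Zeb1, Snai1, Snai2 and Twist1 were added after their values were seen. Alternatives were other pseudocounts (0.5 and 0.1), filters (none, 5 TPM), centring, quantile normalization, no trend, library weights, left-out libraries and other PSI thresholds; those leaving out 2 libraries were chosen after seeing the data. The sequence of 1 Esrp1 exon is not reported here.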

Additional observations from a re-analysis of the deposited data

Results flagged for a closer look

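In groups of 4, chance sets 1 sample apart in about 1 in 20 groups, and 56 groups were examined. Esrp1 in controls was flagged because control library 4, at 162 TPM, lay apart from the other 3 at 131 to 135 TPM, with a gap of 0.843 of the range on the log2 scale (limit 0.829). Galnt10 in experimental libraries (0.844) and Nipal4 in controls (0.885) were flagged likewise, for experimental library 2 at 1.36 TPM and control library 4 at 106 TPM. Rad54b in experimental libraries (0.848) and Pla2g15 in controls (0.933) stood near the floor of 1 TPM, where 2 libraries of each group were listed at 0.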

How the results depend on the processing

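No paired analysis was possible because the columns of the expression data carry no replicate number of the labels. Esrp1 kept its direction and its call in 18 of 19 alternatives; without experimental libraries 2 and 4 its log2 change was -0.99 (limma adjusted p = 0.154). Left-out single libraries gave Esrp1 log2 changes of -1.21 to -1.01 and Esrp2 0.50 to 0.87. Esrp2 stayed above 0 in 18 of 18 alternatives and passed only with library weights (1.37); a filter of 5 TPM removed it. Over all genes 263 passed, 85 to 578 without 1 library (85 without experimental library 3, 578 without control library 4), 4423 with library weights, 544 without control libraries 1 and 2, 2595 without control libraries 3 and 4, and 15 without experimental libraries 2 and 4. Centring moved the median gene from -0.18 to 0.03 and gave 283 higher and 102 lower genes, against 98 and 165. List members passing numbered 4, 1 to 7 without 1 library, 45 with weights, and 2, 33 and 0 in the fits without those pairs of libraries. Neighbours passing numbered 0, but 1 with quantile normalization, 2 with weights and 2 without control libraries 3 and 4. Esrp1 junctions changed numbered 16 when entries were counted separately. The share of RNA without exons 7 to 9 was 0.828 from exon 6 and 0.669 from exon 10; the cause of these shifts was not tested. MAJIQ values could not be recomputed without a library.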
